A study of Homo sapiens with 12 samples.

Results

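Pluripotency genes, the genes whose products keep embryonic stem cells undifferentiated or mark that state, were examined in the region lists of a study of DNA replication and histone acetylation in human cells. The 10 genes were POU5F1, SOX2, NANOG, SALL4, PRDM14, LIN28A, LIN28B, L1TD1, DNMT3B and DPPA4. A region counted as a member of a gene's set when it reached by 1 bp or more into the gene or the 20 kb on either side, by hg19 positions given to 1 kb. Distances from a gene or its 5′ end, and placement inside or before it, carry this rounding, also where printed more finely. This rule took 70 of the 169273 regions in 6 lists, namely 55 of 65946 in H1 H3K18ac, 11 of 84471 in IMR90 H3K18ac, 1 of 1755 in H1 knockdown BrdU, 2 of 5086 in H1 control BrdU, 1 of 5743 in IMR90 BrdU and 0 of 6272 in Saos-2 BrdU. The 10 windows measured between 42 and 166 kb, with a median of 58.5 kb.

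The samples came from 3 established cell lines: H1, a human embryonic stem cell line, IMR90, fibroblasts of human lung, and Saos-2, an osteosarcoma line. H1 knockdown BrdU cells received siRNAs against EP300 and CREBBP, the related acetyltransferases p300 and CBP, and H1 control BrdU cells received a non-targeting siRNA. Both of these cultures also carried 10 µM HA 1077 and were collected after 72 h. H1 H3K18ac, IMR90 H3K18ac, IMR90 BrdU and Saos-2 BrdU cells received no siRNA. In the BrdU libraries, DNA labelled with the thymidine analogue bromodeoxyuridine was pulled down to locate newly made DNA. In the H3K18ac libraries, chromatin with acetylated lysine 18 of histone H3 was pulled down. Each group had 1 library, so no difference could be set beside the spread of replicates and no p-values are given. The 6 lists covered 15.7 Mb in H1 H3K18ac, 39.5 Mb in IMR90 H3K18ac, 0.211 Mb in H1 knockdown BrdU, 1.08 Mb in H1 control BrdU, 1.22 Mb in IMR90 BrdU and 2.06 Mb in Saos-2 BrdU. The depth of the libraries is unknown, and a gene without a region may hold signal below the authors' threshold.

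POU5F1 (OCT4), SOX2 and NANOG are transcription factors that bind together at enhancers of embryonic stem cells, including their own, and hold one another active. SALL4 and PRDM14 are further factors of this network, LIN28A and LIN28B are RNA-binding proteins that block maturation of the let-7 microRNAs, L1TD1 is an RNA-binding protein derived from a LINE-1 element, DNMT3B is a de novo DNA methyltransferase, and DPPA4 is a nuclear protein of pluripotent cells. Most of them are silenced as cells differentiate, and fibroblasts do not as a rule use them. H3K18ac is laid down chiefly by p300 and CBP and is typical of active promoters and enhancers.

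For 6 of the 10 genes RefSeq promoters of GRCh38.p14 were at hand. The one for DNMT3B belongs to a start inside the gene and is not shown. Of the others, 4 sequences are shown because they stand for the contrasts described further on. SOX2 had H1 H3K18ac regions within 1 kb of its start, NANOG had none there, and both starts of LIN28B are given. Each run holds the 250 bases before a transcription start, read 5′ to 3′ on the gene's strand. Capitals mark the core of the octamer bound by POU5F1 (ATGCAAA on either strand) and, in NANOG, the composite site of POU5F1 and SOX2 (CATTGT, any base, then ATGCAAA, on either strand) that contains it.
SOX2, chr3:181711675-181711924, + strand: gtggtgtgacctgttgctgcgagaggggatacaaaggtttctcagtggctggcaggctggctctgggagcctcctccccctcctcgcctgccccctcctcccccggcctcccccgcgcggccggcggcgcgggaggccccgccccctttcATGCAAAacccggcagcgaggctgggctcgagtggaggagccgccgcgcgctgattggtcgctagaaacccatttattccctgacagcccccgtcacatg
NANOG, chr12:7789152-7789401, + strand: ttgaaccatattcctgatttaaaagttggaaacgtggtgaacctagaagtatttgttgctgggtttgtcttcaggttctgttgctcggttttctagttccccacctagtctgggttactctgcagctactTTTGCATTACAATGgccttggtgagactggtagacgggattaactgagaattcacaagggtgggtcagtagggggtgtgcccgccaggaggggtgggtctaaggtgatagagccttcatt
LIN28B upstream start, chr6:104940715-104940964, + strand: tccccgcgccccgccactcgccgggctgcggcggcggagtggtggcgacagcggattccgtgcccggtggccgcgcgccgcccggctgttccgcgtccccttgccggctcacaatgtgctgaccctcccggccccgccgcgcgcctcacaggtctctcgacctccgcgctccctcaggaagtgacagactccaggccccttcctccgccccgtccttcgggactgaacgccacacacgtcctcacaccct
LIN28B downstream start, chr6:104956857-104957106, + strand: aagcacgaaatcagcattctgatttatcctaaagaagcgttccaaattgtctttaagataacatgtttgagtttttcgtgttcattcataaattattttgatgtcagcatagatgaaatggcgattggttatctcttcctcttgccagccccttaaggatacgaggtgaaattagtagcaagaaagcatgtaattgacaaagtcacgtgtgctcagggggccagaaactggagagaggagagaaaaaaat
The octamer core was found once each in SOX2 and NANOG and in 3.94% of the 35116 RefSeq promoters of this length. The composite site was found in 2 of the 35116 promoters, and NANOG was one of them. The SOX2 promoter held 20 CpG dinucleotides and the NANOG promoter 4, against a median of 11 over all promoters. The DPPA4 promoter held 3, and DPPA4 had an H1 region within 1 kb of its start. NANOG was the only gene without an H1 region within 1 kb of its start, and 4 genes had no promoter sequence. A link between CpG number and H3K18ac was therefore not tested. The upstream LIN28B promoter held 33 CpG and 2 GC boxes (GGGCGG on either strand, present in 42.6% of promoters), and the downstream one held 6 CpG and 0 GC boxes. These are matches of letters and do not show that a factor was bound. Their coordinates are of another build than the region lists and were not converted.

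The first comparison set H3K18ac in H1 beside H3K18ac in IMR90 at these genes. All 10 genes had at least 1 H1 region, and 4 of 10 had an IMR90 region. Over tiles of 50 kb across the genome, 46.2% held an H1 region and 36.9% an IMR90 region, and over tiles of 100 kb the shares were 63.9% and 50.7%. The H1 regions covered 18700 bp of the windows and the IMR90 regions 2700 bp, a ratio of 6.93, whereas over the whole lists the ratio of H1 to IMR90 was 0.399. Per kb of window this was 27.7 bp in H1 and 3.99 bp in IMR90, against genome means of 5.65 bp in H1 and 14.2 bp in IMR90. DNMT3B held most of the IMR90 length, and without it the ratio was 16.1. A gene was called higher in a cell line when its covered length was at least 2 times that in the other and at least 200 bp more. By this rule 8 of 10 genes were higher in H1 and 0 in IMR90, against 18.7% and 22.6% of 50 kb tiles. Over 100 kb tiles the shares were 24.5% and 29.6%. An H1 region without any IMR90 region was found at 6 of 10 genes and in 22.9% of 50 kb tiles, or 49.6% of the tiles with an H1 region. Among those tiles, 40.5% were higher in H1 and 23.3% higher in IMR90. The median gene had 1800 bp in H1 and 0 bp in IMR90, and the median 50 kb tile had 0 bp in both. The tiles are not gene windows, since no hg19 gene annotation was used, and for the same reason the IMR90 list was not checked at fibroblast genes.

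**Figure D1:**
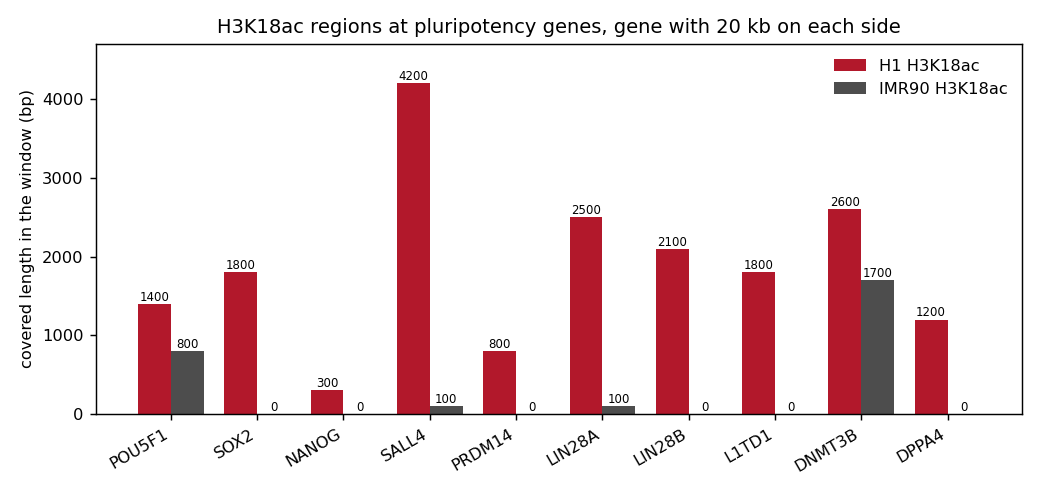
Covered length of H3K18ac regions in bp (vertical axis) in the window of each gene, with 1 bar for the H1 library and 1 for the IMR90 library. H1 bars reach from 300 bp at NANOG to 4200 bp at SALL4, and IMR90 bars are at 0 for 6 genes.

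**Figure D2:**
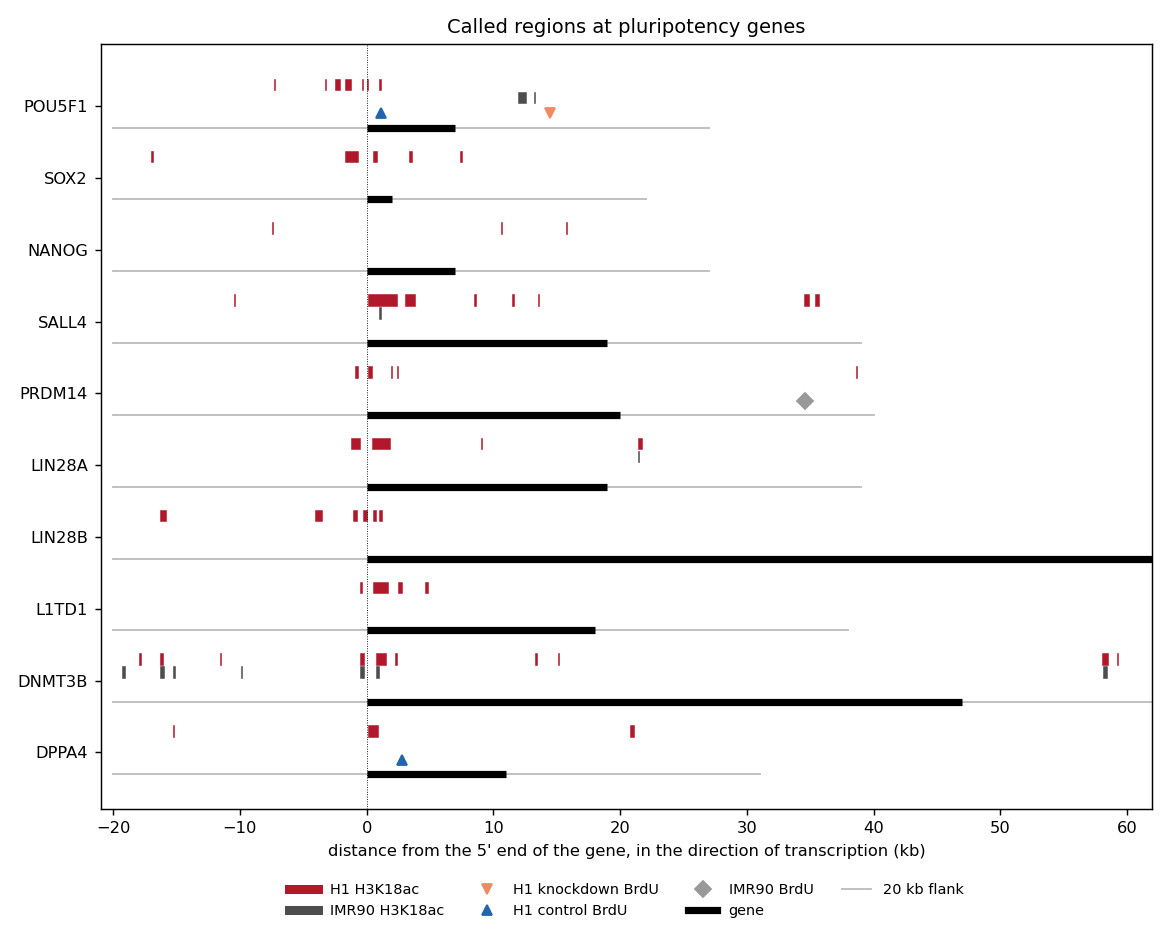
Positions of called regions by distance from the 5′ end of each gene in kb (horizontal axis), with H3K18ac as bars, BrdU as symbols, the gene in black and its 20 kb flanks in grey. The axis ends at 62 kb, past the last region of LIN28B, whose gene body continues. H1 H3K18ac bars gather at the 5′ end of 9 genes, and NANOG has none there.

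Among the core factors, SOX2 had an H1 H3K18ac region of high score and no region in IMR90. Its 5 H1 regions covered 1800 bp, and its IMR90 window held 0 bp, with the nearest IMR90 region 418 kb from the gene. The strongest H1 region, on chromosome 3 at 181428301 to 181429300, lay 1.7 to 0.7 kb before the 5′ end and ranked 1063 of the list by score, or in its upper 1.61%. Regions of 300 bp followed inside the gene at 181430501 to 181430800 and behind it at 181433301 to 181433600. The window lies within the long non-coding gene SOX2-OT, which overlaps SOX2, so the regions cannot be assigned to one of the genes.

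POU5F1 had 7 H1 regions over 1400 bp and 2 IMR90 regions over 800 bp, and at a ratio of 1.75 it was not called. The 2 lists shared no position there. The H1 regions lay on chromosome 6 between 31137901 and 31146300, from 1.1 kb inside the gene to 7.3 kb before its 5′ end. The 500 bp region at 31140201 to 31140700 was the strongest, in the upper 11.7% of the list, and with the 400 bp region at 31141101 to 31141500 it lay between 1.2 and 2.5 kb upstream. Known enhancers of POU5F1 lie in the few kb before the gene, and RefSeq places the long non-coding gene PSORS1C3 on the same side, so these regions cannot be assigned to one of the genes. The IMR90 regions, of 100 and 700 bp, lay behind the 3′ end at 31125701 to 31125800 and 31126401 to 31127100, the side on which RefSeq places TCF19 and CCHCR1. In the gene itself IMR90 had 0 regions. POU5F1 and NANOG have near-identical processed pseudogenes elsewhere in the genome, and how reads with several matches were handled is not given in the sources used here.

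NANOG was the least marked of the 10 genes. Its 3 H1 regions were 1 window of 100 bp each, at chromosome 12 7934501 to 7934600, 7952601 to 7952700 and 7957701 to 7957800, and IMR90 had 0 regions. They ranked at 97.0%, 87.3% and 59.5% of the H1 list by score, that is, in its weaker part. None lay inside the gene, and the nearest to it was 3.6 kb away behind the 3′ end. It was also the gene without an H1 region within 5 kb of the 5′ end, while each of the other 9 had one within 1 kb.

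SALL4, a zinc finger factor that works with POU5F1, had the most H1 H3K18ac of all 10 genes. Its 8 H1 regions covered 4200 bp, and 1 IMR90 region covered 100 bp. The H1 region at chromosome 20 50416601 to 50418900 measured 2300 bp, began 0.1 kb behind the 5′ end and ranked 292 of 65946, and 58 regions of the H1 list (0.088%), itself included, were as long or longer. A second region of 800 bp lay just behind it at 50415201 to 50416000. The IMR90 region, at 50417901 to 50418000, fell inside the long H1 region. Farther downstream the H1 regions at 50383301 to 50383600 and 50384101 to 50384500 lay on the side of ATP9A, the neighbouring gene in RefSeq.

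PRDM14, a repressor of differentiation genes, had 5 H1 regions over 800 bp and 0 in IMR90, with the nearest IMR90 region 162 kb away. The longest measured 300 bp and lay 0.1 to 0.4 kb behind the 5′ end, at chromosome 8 70983601 to 70983900. It ranked in the upper 22.4% of the H1 list, which made PRDM14, POU5F1 and NANOG the 3 genes without a region in the upper 10%.

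The RNA-binding proteins were marked at their starts in H1 and nearly unmarked in IMR90. LIN28A had 4 H1 regions over 2500 bp and 1 IMR90 region over 100 bp. Its regions at chromosome 1 26735801 to 26736500 and 26737401 to 26738800 flanked the 5′ end, and the second of these, 1400 bp long, ranked 616, in the upper 0.934%. The IMR90 region at 26758401 to 26758500 coincided with an H1 region at 26758401 to 26758700, behind the 3′ end on the side of DHDDS, a neighbouring gene for dolichol synthesis. Inside LIN28A IMR90 had 0 regions.

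LIN28B had 6 H1 regions over 2100 bp and 0 in IMR90, where the nearest region was 85.8 kb away. The strongest did not lie at the 5′ end used here but 16.3 to 15.8 kb before it, at chromosome 6 105388701 to 105389200, in the upper 3.17% of the list. In RefSeq the upstream start of LIN28B lies 16.1 kb before the downstream one. A region of 600 bp at 105400901 to 105401500 lay 4.1 to 3.5 kb before the downstream start, and 4 regions of 200 or 300 bp lay within 1.2 kb of it. The 4 ranked between 25.6% and 33.0% of the list. The strongest LIN28B region and the CpG-rich upstream promoter printed above had similar distances from the downstream start, whose promoter held 6 CpG. However, the 2 distances come from different builds, and that of the region rests on a 5′ end given to 1 kb. Whether the region lies at the upstream promoter was not tested. The long non-coding gene LIN28B-AS1 overlaps LIN28B in RefSeq, so the region cannot be assigned to one of the genes.

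L1TD1 had 4 H1 regions over 1800 bp and 0 in IMR90, with the nearest IMR90 region 223 kb from the gene. They ran from 0.5 kb before the 5′ end to 4.8 kb behind it. The region at chromosome 1 62660501 to 62661700 measured 1200 bp and ranked 1262, in the upper 1.91%. Its promoter in RefSeq held 12 CpG.

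DNMT3B held 4 of the 6 IMR90 regions that overlapped an H1 region, and SALL4 and LIN28A held 1 each. DNMT3B, the de novo methyltransferase, had 10 H1 regions over 2600 bp and 7 IMR90 regions over 1700 bp, a ratio of 1.53, and was not called. At the 5′ end the region at chromosome 20 31349501 to 31349800 was listed with the same ends in both, and the H1 region at 31350701 to 31351500 began at the same base as the IMR90 region at 31350701 to 31351000. The first of these ranked at 18.4% of the H1 list and 43.7% of the IMR90 list, but ranks in lists of unequal length show no change. Shared regions also lay 16 kb upstream, on the side of COMMD7, and 58 kb downstream, at 31408001 to 31408500 in H1 and 31408101 to 31408400 in IMR90, on the side of MAPRE1, a gene for a microtubule-end protein.

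DPPA4 had 3 H1 regions over 1200 bp and 0 in IMR90, with the nearest IMR90 region 233 kb away. The 800 bp region at chromosome 3 109055101 to 109055900, in the upper 6.43% of the list, lay 0.1 to 0.9 kb behind the 5′ end. A 300 bp region at 109034901 to 109035200 lay on the side of its paralogue DPPA2, the next gene in RefSeq.

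Across the 10 genes the H1 regions were concentrated at the starts. Of the 55 H1 regions, 19 lay within 1 kb of a 5′ end and held 10700 of the 18700 bp. A region lay within 1 kb of the 5′ end at 9 of 10 genes in H1 and at 2 of 10 in IMR90 (DNMT3B and SALL4). Over the genome 4.36% of 2 kb tiles held an H1 region and 5.0% an IMR90 region. These tiles were not chosen at gene starts, so the share among the starts of other genes is not known. By position, 21 H1 regions lay upstream, 23 in the genes and 11 downstream, and of the IMR90 regions 5 lay upstream, 2 in the genes and 4 downstream. Of the H1 regions 20.0% were in the upper 10% of their list by score, and 7 of 10 genes had at least 1 such region. The share of background tiles with such a region was not computed, so the count of genes cannot be set beside it. Even so, 24 of the 55 H1 regions (43.6%) were 1 window long, against 53.7% of the whole H1 list.

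**Figure D3:**
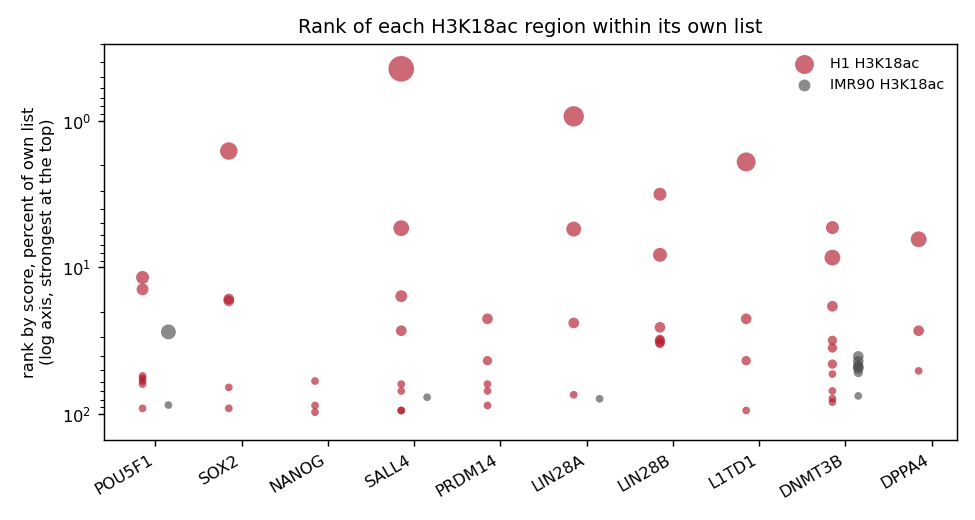
Rank of each H3K18ac region by the authors' score as a percent of its own list (vertical log axis, strongest at the top), by gene, with larger points for longer regions. SALL4 and LIN28A hold the 2 H1 regions in the upper 1%, and ranks of the H1 and IMR90 lists are not comparable with each other.

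Farther from the genes this pattern ended. H1 regions covered 36.2 bp per kb inside the genes, 29.5 within 10 kb, 14.0 between 10 and 20 kb, and 2.5 between 20 and 50 kb, against a genome mean of 5.65. IMR90 regions covered 1.45 bp per kb inside the genes, 6.5 within 10 kb, 5.0 between 10 and 20 kb, and 11.3 between 20 and 50 kb, against a genome mean of 14.2. In the zone from 10 to 20 kb all IMR90 length came from 1 gene, DNMT3B. Between 50 and 100 kb the values were 3.7 in H1 and 8.2 in IMR90, and between 100 and 500 kb 7.81 in H1 and 16.4 in IMR90. Summed over the 10 genes, the covered length was therefore larger in H1 up to 20 kb and larger in IMR90 beyond. This does not describe each gene, since between 20 and 50 kb the IMR90 length came from 4 genes and the H1 length from 6. With flanks of 50 kb in the windows, 7 of 10 genes were still higher in H1 and 0 in IMR90. These zones were chosen after the values had been seen.

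**Figure D4:**
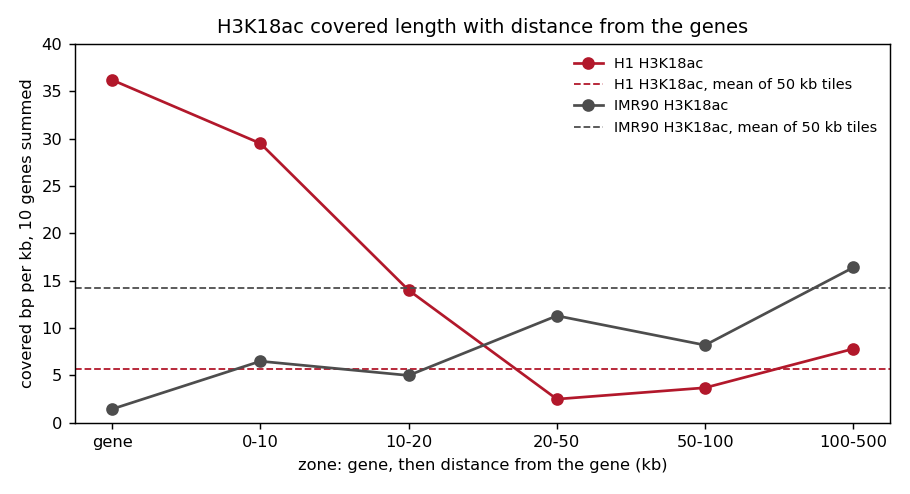
H3K18ac covered length in bp per kb, summed over the 10 genes (vertical axis), inside the genes and in zones of rising distance from them in kb (horizontal axis). Dashed lines are the means over 50 kb tiles of the genome. H1 falls from 36.2 in the genes to 2.5 at 20 to 50 kb, where the IMR90 value of 11.3 is the higher one.

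The second comparison asked where newly made DNA was called at these genes. BrdU regions were rare: 4 regions of the 18856 in 4 lists lay in the windows, at 3 of 10 genes, and 17.9% of 50 kb tiles held a region of any of the 4 lists. SOX2, NANOG, SALL4, LIN28A, LIN28B, L1TD1 and DNMT3B had none. The number of genes with a region was 1 in H1 knockdown, 2 in H1 control, 1 in IMR90 and 0 in Saos-2. The shares of 50 kb tiles with a region were 2.97%, 7.58%, 7.74% and 8.35% in the same order of lists, and of 100 kb tiles 5.77%, 13.6%, 13.2% and 14.3%. At the mean density of each list, windows of this length would hold 0.426, 1.24, 1.4 and 1.53 regions, so the counts at these genes are close to the background and no difference between the lists was detectable.

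At POU5F1 the H1 knockdown list held a region of 100 bp at chromosome 6 31124501 to 31124600, which lay 7.4 kb from the gene behind the 3′ end and 13.3 kb from the nearest H1 H3K18ac region. The H1 control list held a region of 200 bp inside the gene, at 31137801 to 31138000, 1.0 to 1.2 kb behind the 5′ end, in the upper 45.9% of that list by score. The regions of both H1 lists did not overlap. The control region was the one BrdU region of the windows that overlapped H1 H3K18ac, a 100 bp region at 31137901 to 31138000. The nearest regions in IMR90 and Saos-2 were 182 and 131 kb from the gene.

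At DPPA4 the nearest H1 knockdown region was 2720 kb away, and the H1 control list held a region of 100 bp inside the gene, at chromosome 3 109053201 to 109053300, 1.8 kb from the nearest H1 H3K18ac region. It ranked at 88.4% of the list, among the weaker regions. At PRDM14 the nearest H1 control region was 96.0 kb away, and the IMR90 list held a region of 100 bp at chromosome 8 70949401 to 70949500, 14.5 kb behind the gene, at 89.2% of its list. Both regions were 1 window long and weak within their lists.

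No H1 knockdown region overlapped the control regions at POU5F1 and DPPA4. A control region without a knockdown region in the same window was found at 1 of 10 genes, DPPA4, and in 6.73% of 50 kb tiles. Of the 4228 tiles of 50 kb with a control region, 3752 held no knockdown region, so this was the usual case across the genome. The knockdown list as a whole held 1755 regions against 5086 in the control list, so the absence of a knockdown region at these positions cannot be told apart from this difference between the lists.

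The distance from each gene to the nearest BrdU region varied widely. Its median over the 10 genes was 522 kb in H1 knockdown, 118 kb in H1 control, 406 kb in IMR90 and 320 kb in Saos-2. It exceeded 100 kb at 8 genes in H1 knockdown, 5 in H1 control, 7 in IMR90 and 9 in Saos-2. Such distances were not computed for other positions in the genome, so whether these values are unusual is not known. SOX2, NANOG, SALL4 and LIN28B were more than 100 kb from a region in all 4 lists. The distances at SOX2 were 649 kb in H1 knockdown, 1820 kb in H1 control, 1580 kb in IMR90 and 394 kb in Saos-2. In the same order they were 1010, 143, 629 and 647 kb at NANOG and 520, 425, 158 and 238 kb at SALL4. At LIN28B they were 413, 929, 929 and 810 kb. At L1TD1 a region at chromosome 1 62725601 to 62725700, 47.6 kb from the gene, was listed with the same ends in H1 knockdown and H1 control, and a Saos-2 region at 62726001 to 62726100 lay next to it. At LIN28A the nearest H1 control region was 72.7 kb away, and the nearest IMR90 region, 22.1 kb from the gene, lay just outside the window. The lists differed in number of regions, and the part of this in the distances was not tested.

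**Figure D5:**
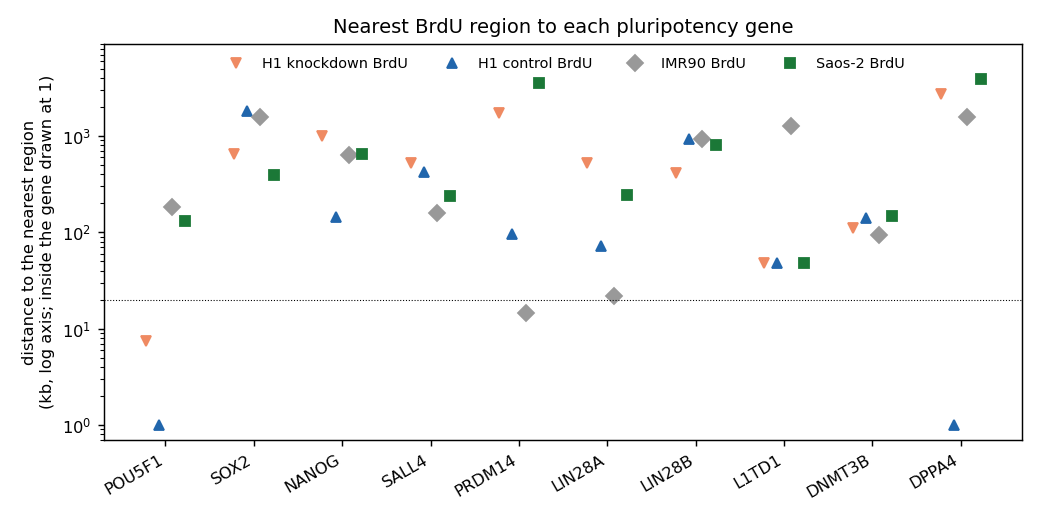
Distance in kb from each gene to the nearest BrdU region of each of 4 lists (vertical log axis, with regions inside the gene drawn at 1), with 1 point for each gene and list. The dotted line marks the 20 kb flank, below which 4 points lie at POU5F1, PRDM14 and DPPA4.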

How the data were processed

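DNA pulled down for BrdU or H3K18ac was sequenced in 6 libraries of 3 cell lines, and 6 further input libraries were not analysed here. The authors deposited 1 list of regions per library, with chromosome, start, end and a score per region whose meaning is not stated. Regions were ranked by it, each within its own list. Terms such as strongest and weak refer to this rank and not to a measured level of acetylation or synthesis. Bowtie 0.12.7 and hg19 are named in the submitters' processing notes, and for the caller, its threshold and the use of inputs no source used here gives details. Region ends fall on multiples of a 100 bp window, and both end positions belong to the region.

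Counts, covered lengths and distances were computed in Python 3.11.15 with numpy 2.4.6 and pandas 2.3.3, and plots drawn with matplotlib 3.10.9. The code recovered regions planted in simulated lists. The 10 genes and their positions, to 1 kb, were chosen with earlier results of these data known. Strands came from RefSeq for 6 genes and from general knowledge for 4. Background tiles left out 500 kb bins without a region of any library, which left 55755 tiles of 50 kb. Names of neighbouring genes are from RefSeq on GRCh38.p14. Planned counts at other pluripotency and fibroblast genes needed an hg19 annotation and were not run. All 10 genes, every BrdU region and the highest-scoring and longest H3K18ac regions were to be named by rule, and further regions were chosen after their values were seen.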

Additional observations from a re-analysis of the deposited data

How the results depend on the processing

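Of 107 alternative values of 19 results, 85 stayed within 1.5 times the reported value and 22 moved further. A change of direction was looked for only in the ratio of H1 to IMR90, which was 2.13 at its lowest. The number of genes with an H1 H3K18ac region and the number higher in H1 stayed within that range under every alternative run. Genes with an IMR90 H3K18ac region numbered 2 in the genes alone and 2 in the upper 50% by score. Summed H3K18ac length was 10001 bp in H1 for the genes alone. In IMR90 it was 400 bp for the genes alone, 1700 bp with flanks of 10 kb, 9501 bp with 50 kb and 1000 bp without DNMT3B. The ratio of H1 to IMR90 was 25.0 for the genes alone, 16.1 without DNMT3B and 2.13 with flanks of 50 kb. The share of tiles higher in H1 was 40.5% among those with an H1 region, a choice made after the data had been seen. Genes with a BrdU region in the H1 knockdown numbered 0 in the genes alone, 2 with 50 kb and 0 in the upper 50% by score. In H1 control they numbered 1 in the upper 50% and 0 in lists of equal number. In IMR90 they numbered 0 in the genes alone, with 10 kb, in the upper 50% and in lists of equal number, and 2 with 50 kb, and in Saos-2 1 with 50 kb. Shorter lists or windows hold fewer regions by construction. No paired analysis was possible because each group had 1 library. With unknown depth, a missing region does not show a missing mark or missing synthesis.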
